A study of Mus musculus with 32 samples.

Results

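The potassium channel genes described here are the protein-coding genes whose symbol begins with Kcn and that reached at least 10 counts in at least 4 of the 32 libraries. They comprise 82 of the 94 protein-coding Kcn genes in the deposited matrix, which holds 54146 gene rows. Of the 12 genes left out, 10 reached 10 counts in 0 libraries, Kcnv2 did so in 2 and Kcnn4 in 3. Just inside the limit were Kcne3 with 5 libraries, Kcne2 with 7 and Kcnj13 with 11. Polyadenylated RNA was sequenced from a single hemisphere of hippocampus or striatum of male C57BL/6J mice aged 12 weeks. The drug was CI-994, which inhibits class I histone deacetylases and is called HDACi below, given by intraperitoneal injection at 30 mg/kg, and vehicle mice received the solvent. Behaviour followed 1 hour after injection and was either contextual fear conditioning (CFC), with 2 foot shocks of 0.2 mA, or the chamber alone (context). Tissue was taken 1 hour after behaviour. The 8 groups of 4 libraries are HDACi CFC, HDACi Context, Veh CFC and Veh Context in hippocampus, and the same 4 in striatum. Every library came from 1 region of 1 mouse, and no label ties a hippocampus library to a striatum library of the same animal. Comparisons between the regions treated all libraries as independent. Mice that shared a cage also shared the behaviour, so cage and behaviour cannot be told apart.

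Potassium channels let potassium leave or enter a cell and thereby set its resting potential, the shape of its action potentials and its firing rate. The Kcn symbols cover several families. Voltage-gated (Kv) pore subunits are encoded by Kcna, Kcnb, Kcnc, Kcnd, Kcnh and Kcnq, and electrically silent Kv subunits, which only modify Kcnb channels, by Kcnf, Kcng, Kcns and Kcnv. Auxiliary subunits are encoded by Kcnab, Kcne and Kcnip, inward rectifiers (Kir) by Kcnj, tandem-pore leak channels by Kcnk, and channels gated by calcium or sodium by Kcnm, Kcnn and Kcnt. In hippocampus, A-type Kv currents and G-protein-gated Kir channels limit dendritic excitability, and in striatum strong inward rectifiers hold medium spiny neurons at a negative resting potential.

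Hippocampus libraries totalled 26026024 to 36670767 counts each, and striatum libraries 27418127 to 33635025. Prox1, a dentate granule cell gene, had 152 to 302 CPM (counts scaled to a common library total, after TMM normalization) in hippocampus and 11.5 to 23.8 CPM in striatum. Drd1, a medium spiny neuron gene, had 2.43 to 4.54 CPM in hippocampus and 250 to 436 CPM in striatum, so the markers matched the region labels. Marker levels set 4 libraries apart, by limits chosen after the values were seen. HDACi CFC replicates 2 and 4 in hippocampus carried choroid plexus RNA, and HDACi CFC replicate 2 and Veh CFC replicate 3 in striatum were low in medium spiny neuron genes. Of the 82 genes, 27 share exonic bases with another gene. For 25 of these the partner lies only on the opposite strand, and the strand setting of the counting is not given in the sources used here. The values of these 27 genes are therefore uncertain, Kcna6, Kcnk1 and Kcnj13 among them.

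Potassium channel transcripts spanned a wide range of levels in both regions. In Veh Context hippocampus 69 of the 82 genes averaged at least 1 CPM, 49 at least 10 and 17 at least 100. In Veh Context striatum the counts were 69, 47 and 14. To set genes beside each other, CPM was divided by the kilobases of merged exons (CPM per kb, mean ± SD, n = 4). In Veh Context hippocampus the leading gene was Kcnab2, a Kv β subunit, at 93.2 ± 18.7 CPM per kb. It was followed by Kcnip2, a calcium-binding partner of A-type channels, at 62.4 ± 7.39 CPM per kb. In Veh Context striatum Kcnip2 led at 105 ± 14.1 CPM per kb, followed by the β subunit gene Kcnab1 at 61.8 ± 3.26. Below these, Kcnj4, a strong inward rectifier, at 45.4 ± 13.2 and the A-type pore gene Kcnd2 at 44.8 ± 2.93 CPM per kb lay within their spread of each other. Kcnj10, the astrocytic inward rectifier that takes up extracellular potassium, had 35.6 ± 1.39 CPM per kb in hippocampus and 36.5 ± 4.73 in striatum. Summed over a subfamily, Kcnj held 15.0% of all Kcn CPM per kb in hippocampus and 14.3% in striatum. Kcnip held 12.2% in hippocampus and 15.8% in striatum, and Kcnc 8.67% in hippocampus and 2.6% in striatum.

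**Figure D1:**
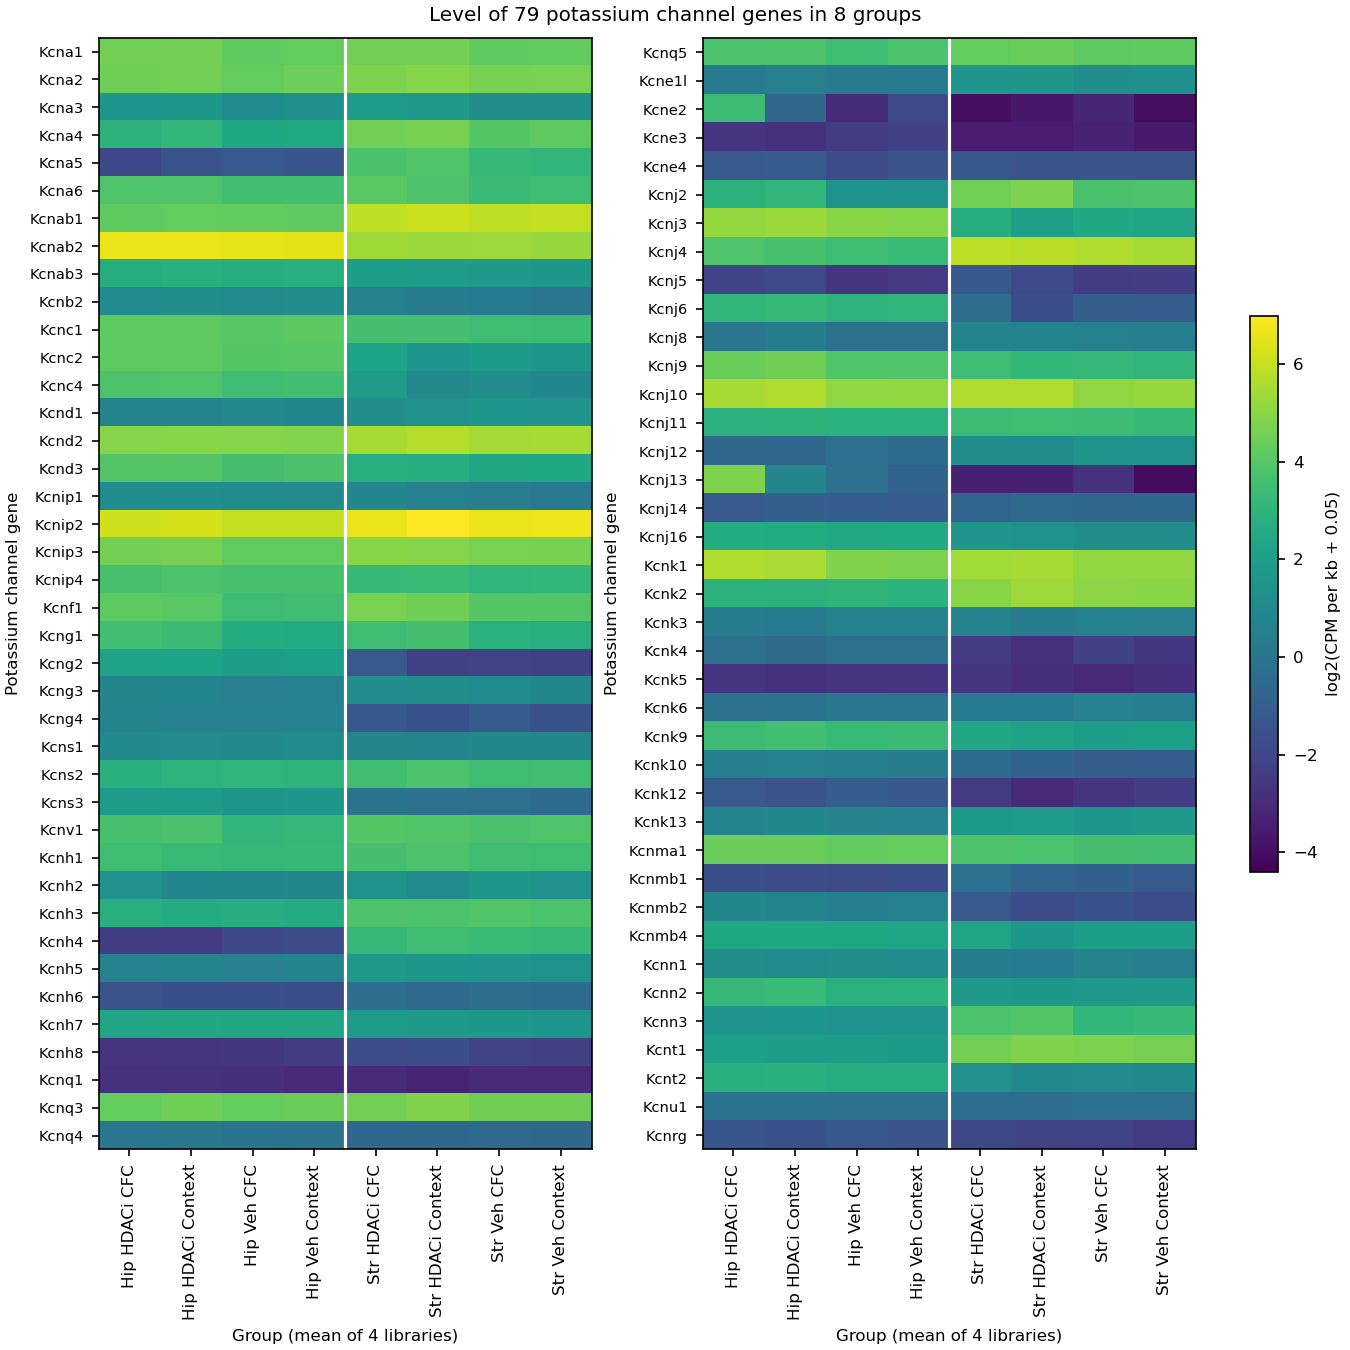
Mean level of 79 of the 82 genes (rows, by subfamily) in the 8 groups (columns, HDACi left of vehicle within each region, 4 libraries a group), as colour on a log2(CPM per kb + 0.05) scale. The brightest rows are Kcnab2, at 93.2 CPM per kb in Veh Context hippocampus, and Kcnip2, at 105 CPM per kb in Veh Context striatum.

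The regions of mice given vehicle and the context alone differed at most potassium channel genes. Of 82 genes, 30 were higher and 30 lower in hippocampus than in striatum by edgeR's quasi-likelihood test with Benjamini-Hochberg adjustment over 19198 genes, at an adjusted p under 0.05. That is 36.6% each way, against 24.2% higher and 19.9% lower of all genes tested. In bulk tissue, fewer cells of a type and less RNA per cell cannot be told apart, here or in the comparisons that follow.

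Among the silent subunits, Kcng2 had 11.8, 12.4, 12.1 and 12.7 CPM in Veh Context hippocampus and 0.476, 0.47, 0.568 and 0.533 CPM in Veh Context striatum. The groups lay far apart, with a log2 fold change of 4.57 (SE 0.32, edgeR adjusted p = 6.25e-13). Kcnj6, a G-protein-gated inward rectifier subunit, had 64.7, 65.5, 72.7 and 61.0 CPM in hippocampus and 3.69, 1.72, 1.83 and 6.81 CPM in striatum. Every hippocampus library was above every striatum library (log2 fold change 4.22, SE 0.54, edgeR adjusted p = 1.42e-07). Its partner gene Kcnj3 was also higher in hippocampus, with a log2 fold change of 2.69 (SE 0.31). Of the Kcnc genes, whose channels repolarise fast-spiking neurons, Kcnc1, Kcnc2 and Kcnc4 were higher in hippocampus, with log2 fold changes of 0.70 for Kcnc1, 2.38 for Kcnc2 and 2.63 for Kcnc4. Kcnc2 had 96.9, 112, 126 and 131 CPM in hippocampus, against 19.2, 15.7, 23.7 and 30.8 CPM in striatum. Kcnc1 had 170, 169, 168 and 152 CPM in hippocampus, against 103, 104, 96.3 and 102 CPM in striatum. Neither gene overlapped between the regions.

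The genes lower in hippocampus included inward rectifiers and several Kv pore genes. Kcnh4, an ether-a-go-go-like Kv gene, had 1.08, 1.28, 0.467 and 1.11 CPM in Veh Context hippocampus and 47.2, 39.7, 28.1 and 26.8 CPM in striatum. The regions did not overlap (log2 fold change −5.17, SE 0.31, edgeR adjusted p = 3.49e-14). Kcna5, a delayed rectifier subunit, followed with a log2 fold change of −4.59 (SE 0.22), and the sodium-activated channel gene Kcnt1 with −2.89 (SE 0.18). The strong inward rectifier genes Kcnj2, Kcnj4 and Kcnj12 were lower in hippocampus, with log2 fold changes of −2.37 (SE 0.17) for Kcnj2, −2.22 for Kcnj4 and −1.90 for Kcnj12. Kcnk2, which encodes a mechanosensitive leak channel, had −2.12 (SE 0.10), Kcnn3, a small-conductance calcium-activated channel gene, −1.73, and the A-type gene Kcna4 −1.65. Kcnj10 (−0.03, edgeR adjusted p = 0.786) and Kcng1 (−0.18, edgeR adjusted p = 0.222) did not pass the test. Settings other than the main one gave 51 to 65 calls, and leaving out each library gave 57 to 61.

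**Figure D2:**
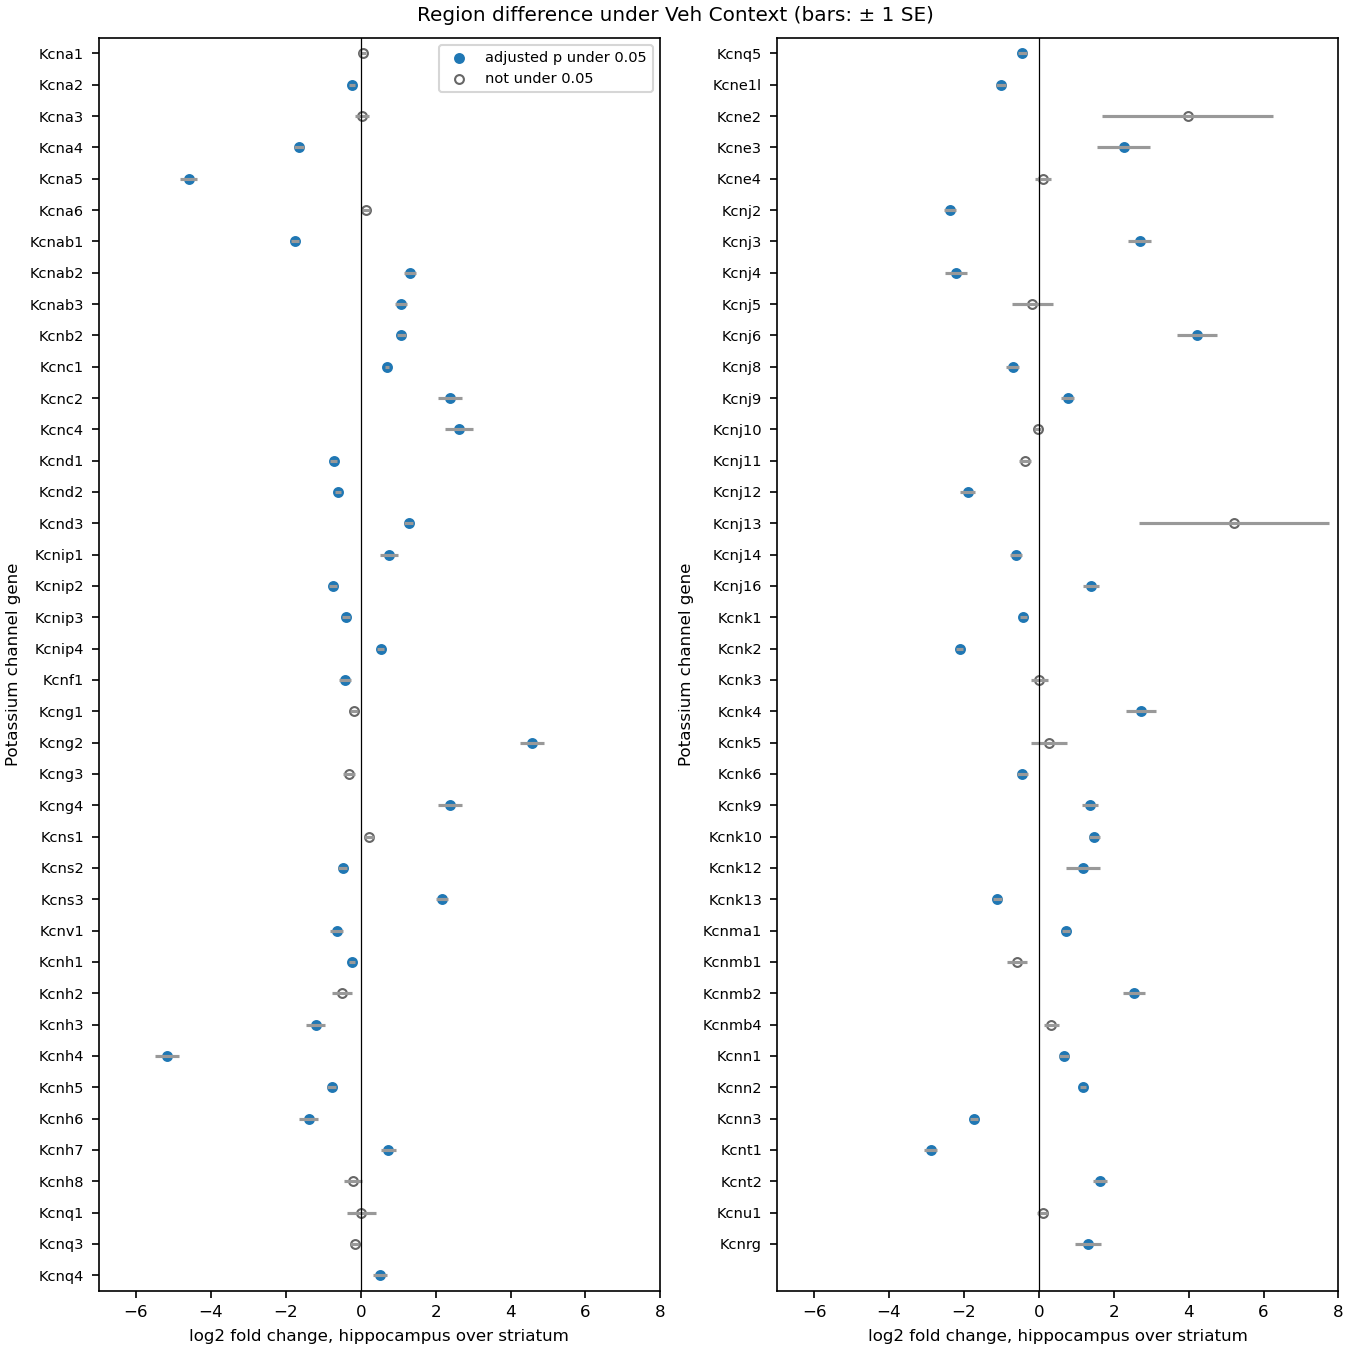
Log2 fold change (horizontal axis) of 79 of the 82 genes (rows), hippocampus over striatum, in Veh Context mice, with bars of 1 SE and filled points where the edgeR adjusted p was under 0.05 (n = 4 libraries a region). Called values run from 4.57 for Kcng2 to −5.17 for Kcnh4, and the uncalled Kcnj13 and Kcne2 have the widest bars.

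Under HDACi the potassium channel genes that changed were nearly all higher, in both regions and after both behaviours. In hippocampus after CFC, 19 of 82 genes rose and 0 fell (23.2%), against 7.42% higher and 13.4% lower of 18261 genes tested (edgeR's quasi-likelihood test with Benjamini-Hochberg adjustment). In hippocampus after context, 19 of 82 rose and 0 fell, against 6.55% higher and 13.2% lower of all genes. In striatum after CFC, 12 of 78 tested genes rose (15.4%) and 1 fell, against 9.57% higher and 14.6% lower of 18256 genes. In striatum after context, 14 of 78 rose (17.9%) and 0 fell, against 10.3% higher and 14.5% lower of all genes. The share of risers was above the background in all 4 comparisons and the share of fallers below it, and this held in each of 11 other settings of the fit. The background was not matched for level in any of them. Members had a median log2 CPM of 4.76 in hippocampus and 4.61 in striatum, against 3.59 and 3.52 for all genes tested. The background itself moved with GC content and length offsets: members called higher were then 31.7%, 28.0%, 19.2% and 24.4% in the 4 comparisons as ordered above, against 15.1%, 15.8%, 14.8% and 16.2% of all genes higher and 15.9%, 15.4%, 16.6% and 15.7% lower. The median log2 fold change of the members was 0.107 in hippocampus after CFC, 0.123 in hippocampus after context, 0.178 in striatum after CFC and 0.177 in striatum after context. Over all genes tested the medians were 0.0104, 0.0122, 0.0314 and 0.0256 in the same order. Members with a positive change numbered 58 of 82, 65 of 82, 57 of 78 and 56 of 78. Of all genes tested, 51.7%, 51.8%, 54.3% and 53.4% had a positive change. With scaling to library size alone, which moved the median of all genes by −0.113 in striatum after context, the calls were 10 higher and 3 lower in striatum after CFC and 9 higher and 2 lower after context.

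Summed over the 82 genes, hippocampus held 6140 ± 222 CPM in HDACi CFC mice and 5334 ± 218 CPM in Veh CFC mice. It held 6323 ± 67.2 CPM in HDACi Context mice and 5470 ± 123 CPM in Veh Context mice. In striatum the sums were 6556 ± 516 CPM in HDACi CFC and 5814 ± 93.1 CPM in Veh CFC, then 7047 ± 104 CPM in HDACi Context and 5789 ± 226 CPM in Veh Context (mean ± SD, n = 4 each). In each of these pairs every HDACi library was above every vehicle library, by a narrow margin in striatum after CFC (lowest HDACi 5958, highest vehicle 5947 CPM). The sums depend on the TMM factors, where a lower factor gives a higher CPM. These were 0.912 to 0.948 in HDACi Context striatum and 1.00 to 1.04 in Veh Context striatum. The same separation is not given for other genes. With replicates 1 and 2 only, 9, 8, 8 and 6 genes rose in the 4 comparisons as ordered above, and with replicates 3 and 4 only 6, 12, 6 and 8, with 0 called lower in either. Without the 4 libraries set apart the calls numbered 15, 19, 17 and 19. Those higher were 18.3%, 23.2%, 19.2% and 23.1% of the members, against 3.87%, 6.25%, 8.65% and 11.4% of all genes.

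The calls overlapped between comparisons. Those within a region share no libraries, but they share a fit, with its gene filter, TMM scaling and estimate of spread. Same-numbered libraries of different groups also deviated together in part, as given under the processing. In hippocampus 15 genes rose after both behaviours, 78.9% of each list of 19. In striatum 10 rose after both, 83.3% of the 12 and 71.4% of the 14. Over all 4 comparisons 29 genes were called at least once, 12 of them in hippocampus only, 6 in striatum only and 11 in both regions, and 53 were never called. Overlaps and repeat calls over all genes are not given, here or below, so these counts do not set the members apart from other genes. A call in 1 region alone is not a difference between regions, which is tested further on. Called genes were the more abundant ones, with a median log2 CPM of 6.11 in hippocampus after CFC, against 3.68 for members not called. Markers of oligodendrocyte precursor cells moved in the same comparisons: 6, 6, 6 and 4 of 8 rose, and their sum was 330 to 359 CPM in HDACi CFC hippocampus, against 234 to 244 CPM in Veh CFC hippocampus. Their part in the potassium channel result was not tested.

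**Figure D3:**
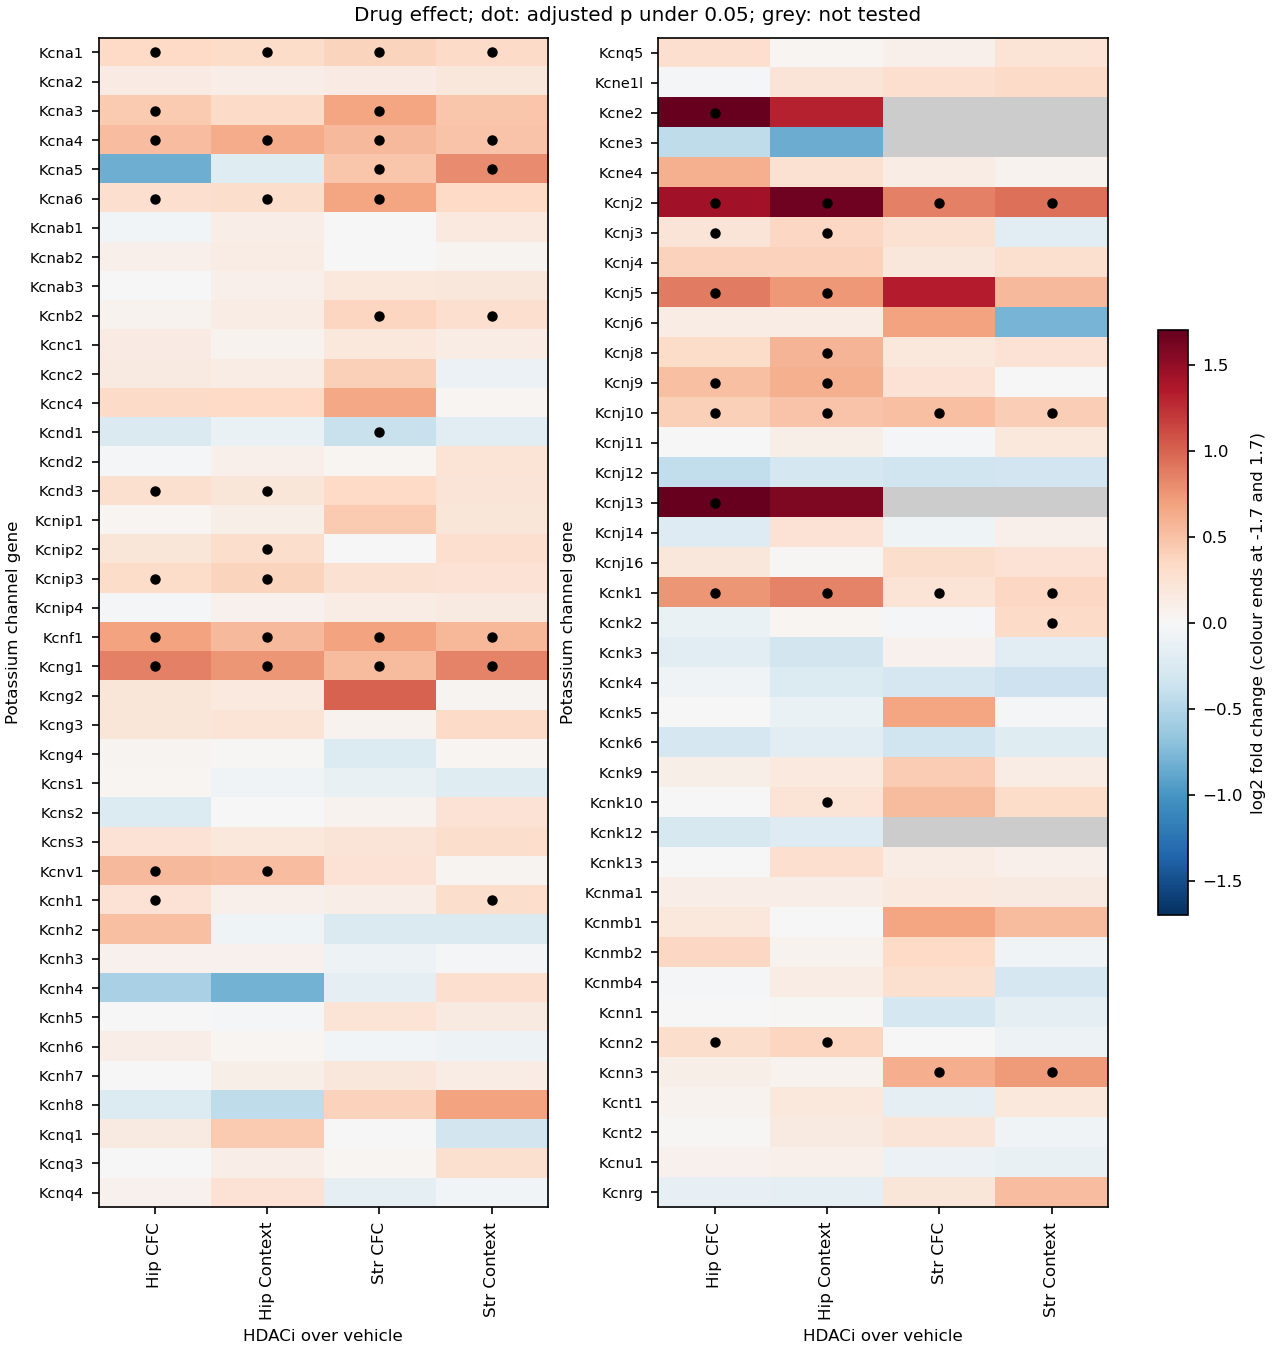
Log2 fold change, HDACi over vehicle, of 79 of the 82 genes (rows) in the 4 drug comparisons (columns), as colour that ends at −1.7 and 1.7, with a dot where the edgeR adjusted p was under 0.05 and grey where a gene was not tested (n = 4 libraries a group). Dots fill all 4 columns in 7 rows, and the only dot on blue is Kcnd1 in striatum after CFC, at −0.37.

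The genes that rose in all 4 comparisons numbered 7, namely Kcnj2, Kcng1, Kcnk1, Kcna4, Kcnf1, Kcnj10 and Kcna1, and Kcna6 rose in 3. Promoters are shown for the 4 members with the smallest adjusted p that had an entry in the promoter table: Kcnj2, Kcnk1 and Kcna4, which rose in both regions, and Kcnn3, which rose in striatum only. Each runs 5′ to 3′ on the gene's strand, from 250 bases before RefSeq's start of the gene to 50 after it, on build GRCm38.p6. For Kcnk1 and Kcna4 the RefSeq start lies upstream of the GENCODE start given below, and the whole window ends before that start. Capitals mark the GC box GGGCGG or the CCAAT box, searched on both strands.

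Kcnj2, chr11:111065914-111066213, plus strand: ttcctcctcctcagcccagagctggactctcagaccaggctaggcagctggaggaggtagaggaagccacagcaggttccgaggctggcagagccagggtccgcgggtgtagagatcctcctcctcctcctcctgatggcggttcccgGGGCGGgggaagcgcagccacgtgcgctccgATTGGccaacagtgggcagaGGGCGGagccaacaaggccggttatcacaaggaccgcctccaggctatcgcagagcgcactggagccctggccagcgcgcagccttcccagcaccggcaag
Kcnk1, chr8:125994852-125995151, plus strand: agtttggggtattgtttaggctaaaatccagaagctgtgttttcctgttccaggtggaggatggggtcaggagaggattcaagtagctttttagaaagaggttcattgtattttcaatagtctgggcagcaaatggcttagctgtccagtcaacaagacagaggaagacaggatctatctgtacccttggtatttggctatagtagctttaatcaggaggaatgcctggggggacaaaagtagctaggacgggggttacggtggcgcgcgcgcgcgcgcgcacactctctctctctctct
Kcna4, chr2:107290339-107290638, plus strand: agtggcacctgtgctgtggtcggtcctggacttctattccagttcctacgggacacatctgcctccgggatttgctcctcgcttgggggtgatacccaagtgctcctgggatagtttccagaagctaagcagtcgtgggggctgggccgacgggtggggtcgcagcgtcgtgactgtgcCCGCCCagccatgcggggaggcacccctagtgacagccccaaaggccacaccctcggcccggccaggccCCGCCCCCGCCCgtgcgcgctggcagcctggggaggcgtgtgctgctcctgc
Kcnn3, chr3:89519914-89520213, plus strand: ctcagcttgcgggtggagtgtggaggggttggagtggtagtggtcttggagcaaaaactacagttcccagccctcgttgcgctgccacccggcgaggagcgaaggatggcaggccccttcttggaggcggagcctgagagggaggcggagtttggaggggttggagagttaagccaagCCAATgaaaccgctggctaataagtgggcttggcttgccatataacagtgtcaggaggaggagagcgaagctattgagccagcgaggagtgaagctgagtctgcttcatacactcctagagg

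The windows differ in base composition, with 66.7% G and C for Kcnj2, 49.0% for Kcnk1, 67.7% for Kcna4 and 57.7% for Kcnn3. GC boxes matched 2 times at Kcnj2, 3 times at Kcna4 and 0 times at Kcnk1 and Kcnn3. Kcng1 had no entry. Of the 82 genes 59 matched the table of 27025 promoters, and 33 of them held a GC box (55.9%), against 35.9% of all promoters of the same length. Among the 21 matched genes called in at least 1 drug comparison 10 held it, and among the 38 never called 23 did. The palindromic cAMP response element TGACGTCA was in 0 of the 59 windows and in 1.88% of all promoters. The TATA box TATAAA was in 3.39% of the member windows and in 14.2% of all promoters, and the CCAAT box in 32.2% and 37.9%. These matches describe letters only.

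Kcnj2 (ENSMUSG00000041695, mm10 chr11:111066164-111076821), which encodes a strong inward rectifier that stabilises the resting potential, had the largest fold change of these genes in all 4 comparisons. In hippocampus it had 46.2, 36.8, 44.7 and 34.8 CPM in HDACi CFC mice and 18.2, 11.9, 17.3 and 12.4 CPM in Veh CFC mice. The groups did not overlap, and the log2 fold change was 1.43 (SE 0.16, edgeR adjusted p = 1.11e-05), or 2.69-fold. After context it had 46.0, 36.7, 54.2 and 48.9 CPM in HDACi mice and 15.2, 11.7, 16.4 and 15.9 CPM in vehicle mice. Again all HDACi libraries were higher, with a log2 fold change of 1.65 (SE 0.16, edgeR adjusted p = 3.37e-06), or 3.13-fold. In striatum, where the vehicle level was higher, it had 152, 92.2, 167 and 113 CPM in HDACi CFC mice and 79.1, 68.2, 75.3 and 63.3 CPM in Veh CFC mice. Following context the gene had 129, 146, 159 and 164 CPM in HDACi striatum and 74.2, 70.8, 77.6 and 84.5 CPM in vehicle striatum. No group overlapped its vehicle group, with log2 fold changes of 0.85 (SE 0.14, edgeR adjusted p = 0.000353) after CFC and 0.94 (SE 0.14, edgeR adjusted p = 0.000145) after context. HDACi CFC replicates 2 and 4 in striatum were the lowest of their group both in Kcnj2 and in the summed medium spiny neuron markers, which ran from 5680 to 9880 CPM in that group and from 6140 to 8460 CPM in Veh CFC striatum, with 0 of 10 markers called higher. Without HDACi CFC replicate 2 and Veh CFC replicate 3 the log2 fold change after CFC was 0.99.

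Kcnj10 (mm10 chr1:172341210-172374085), the astrocytic inward rectifier named above, rose by a similar amount in all 4 comparisons. It had 273, 224, 268 and 222 CPM in HDACi CFC hippocampus and 187, 160, 204 and 184 CPM in Veh CFC hippocampus. In context mice it had 247, 274, 276 and 284 CPM in HDACi hippocampus and 202, 184, 193 and 192 CPM in vehicle hippocampus. No HDACi library fell among the vehicle libraries, and the log2 fold changes were 0.41 (SE 0.09, edgeR adjusted p = 0.00234) after CFC and 0.49 (SE 0.09, edgeR adjusted p = 0.000549) after context. In striatum it had 263, 282, 293 and 246 CPM in HDACi CFC mice and 180, 208, 178 and 182 CPM in Veh CFC mice. With context alone it had 265, 246, 286 and 274 CPM in HDACi striatum and 199, 177, 233 and 181 CPM in vehicle striatum. The groups were again separate, with log2 fold changes of 0.52 (SE 0.09, edgeR adjusted p = 0.000443) after CFC and 0.42 (SE 0.09, edgeR adjusted p = 0.00219) after context. Of 8 astrocyte markers 1, 1, 3 and 4 rose in these 4 comparisons. Their sum was 5200 to 6360 CPM in HDACi CFC hippocampus and 4900 to 5640 CPM in Veh CFC hippocampus, and 4890 to 5220 CPM in HDACi CFC striatum and 4250 to 4790 CPM in Veh CFC striatum. Their part in the rise was not tested. Kcnj16, which pairs with Kcnj10 in astrocytes, did not pass the test in any of the 4.

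Of the silent subunits, Kcng1 and Kcnf1 rose in every comparison. Kcng1 (mm10 chr2:168260117-168281736) had 57.8, 50.9, 44.4 and 54.7 CPM in HDACi CFC hippocampus and 24.4, 34.4, 28.5 and 26.6 CPM in Veh CFC hippocampus. After context it had 50, 51.1, 41.9 and 42.5 CPM in HDACi hippocampus and 34.2, 28.6, 21.3 and 25.6 CPM in vehicle hippocampus. The groups did not overlap, with log2 fold changes of 0.85 (SE 0.13, edgeR adjusted p = 0.00022) after CFC and 0.75 (SE 0.13, edgeR adjusted p = 0.000622) after context. In striatum it had 52.3, 49.6, 45.4 and 46.7 CPM in HDACi CFC mice and 33.3, 33.5, 29.5 and 36.2 CPM in Veh CFC mice. Following context the gene had 59.4, 58.1, 53.5 and 54.9 CPM in HDACi striatum and 31.4, 33.6, 27.4 and 31.6 CPM in vehicle striatum. The separation was complete, with log2 fold changes of 0.53 (SE 0.08, edgeR adjusted p = 0.000103) after CFC and 0.85 (SE 0.08, edgeR adjusted p = 1.22e-06) after context.

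Kcnf1 (mm10 chr12:17172100-17176888) had 94.2, 78.6, 83.2 and 85.4 CPM in HDACi CFC hippocampus and 40.9, 60.1, 52.7 and 56.1 CPM in Veh CFC hippocampus. In context mice it had 69.3, 89.8, 79.9 and 79.9 CPM in HDACi hippocampus and 57.4, 58.2, 45 and 57.4 CPM in vehicle hippocampus. All HDACi hippocampus libraries were above the vehicle ones, with log2 fold changes of 0.69 (SE 0.11, edgeR adjusted p = 0.000369) after CFC and 0.55 (SE 0.11, edgeR adjusted p = 0.00239) after context. In striatum it had 113, 145, 111 and 131 CPM in HDACi CFC mice and 78.7, 54.4, 117 and 57.4 CPM in Veh CFC mice. The high vehicle value of replicate 3 lay among the HDACi values. With context alone it had 91.6, 112, 110 and 122 CPM in HDACi striatum and 80.5, 65.4, 65.9 and 78.9 CPM in vehicle striatum, with no overlap. The striatal log2 fold changes were 0.69 (SE 0.19, edgeR adjusted p = 0.0135) after CFC and 0.56 (SE 0.19, edgeR adjusted p = 0.0366) after context. Neurod6, a neocortical and hippocampal projection neuron gene, was uneven in these libraries, at 1.35, 25.0, 0.418 and 21.9 CPM in HDACi CFC striatum and 0.34, 0.559, 29.5 and 2.89 CPM in Veh CFC striatum. Without HDACi CFC replicate 2 and Veh CFC replicate 3 the log2 fold change after CFC was 0.86, and the call was lost without Veh CFC replicate 2 (0.53, edgeR adjusted p = 0.0519). The call after context was lost in 7 of 16 fits that left out a library, with log2 fold changes of 0.49 to 0.60 in those 7. The other silent subunit that rose was Kcnv1, in hippocampus only, by 0.55 after CFC and 0.52 after context on the log2 scale (edgeR adjusted p = 0.00327 and 0.00507). The 3 Kcns genes and the other 3 Kcng genes were called in 0 of the comparisons.

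**Figure D4:**
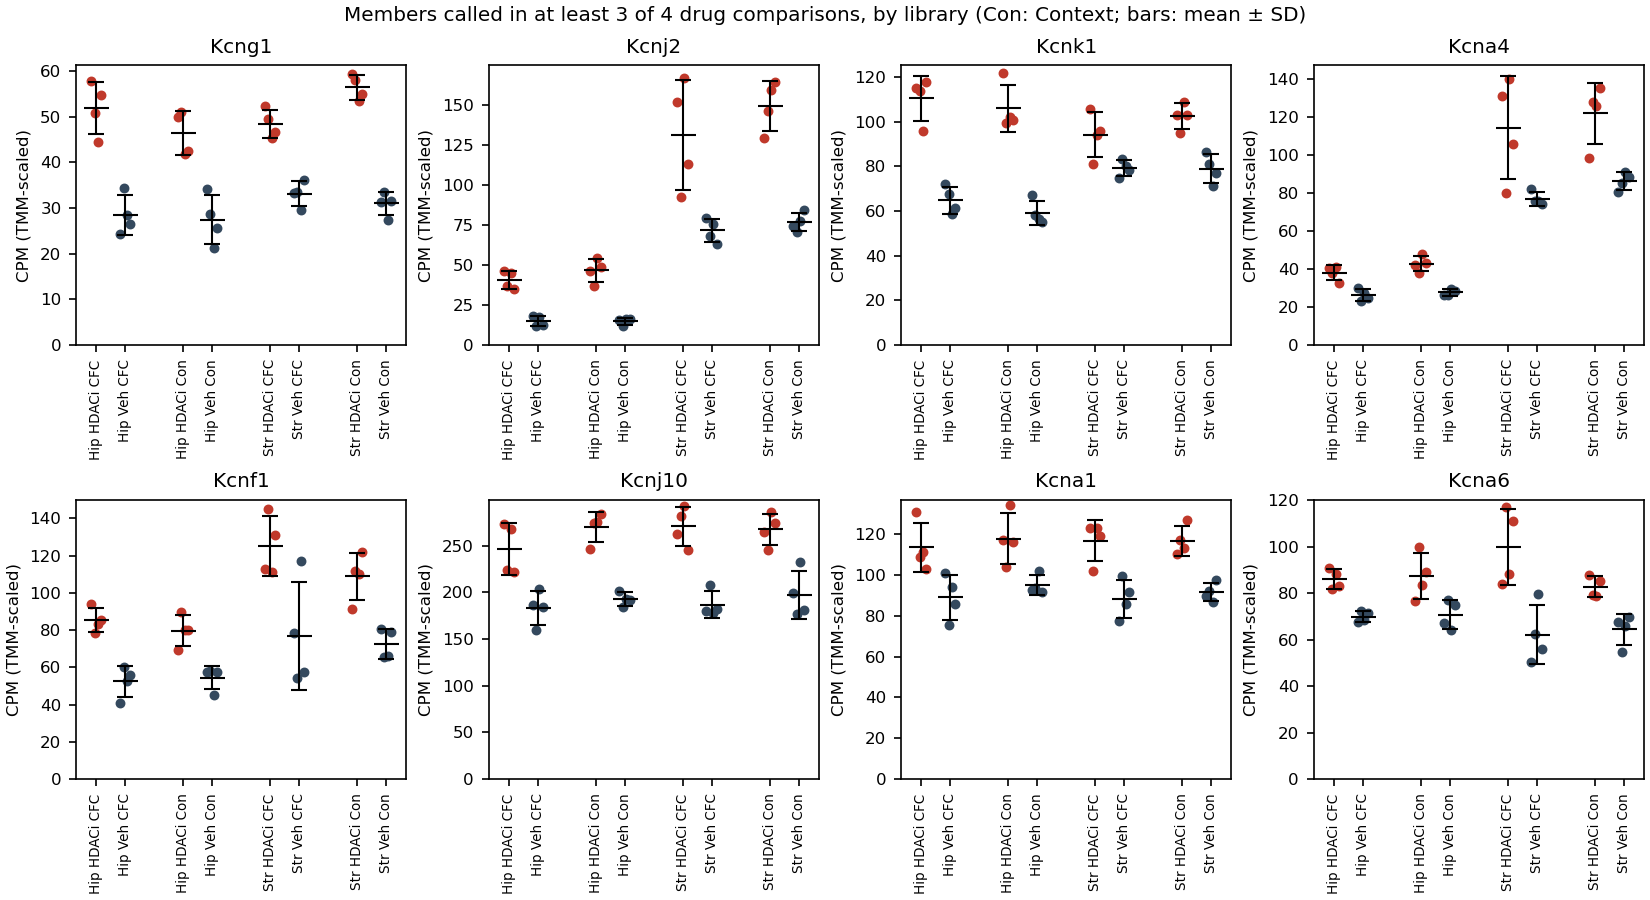
CPM (vertical axis) in every library of the 8 genes called in at least 3 of the 4 drug comparisons, each HDACi group left of its vehicle group; points are libraries and bars are mean ± SD (n = 4). Kcnj2 in hippocampus sits between 34.8 and 54.2 CPM in HDACi libraries, above all vehicle libraries at 11.7 to 18.2 CPM.

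Kcnk1 (mm10 chr8:125995170-126030685), a weak inwardly rectifying member of the tandem-pore family, had 115, 114, 95.7 and 118 CPM in HDACi CFC hippocampus and 72.0, 67.5, 58.7 and 61.2 CPM in Veh CFC hippocampus. After context it had 122, 99.3, 102 and 101 CPM in HDACi hippocampus and 67.0, 58.3, 56.6 and 55.1 CPM in vehicle hippocampus. The groups were far apart, with log2 fold changes of 0.76 (SE 0.09, edgeR adjusted p = 1.57e-05) after CFC and 0.84 (SE 0.09, edgeR adjusted p = 6.31e-06) after context. In striatum the difference was smaller. It had 106, 81.2, 94.0 and 96.1 CPM in HDACi CFC mice and 75.0, 83.5, 80.4 and 78.4 CPM in Veh CFC mice, with replicate 2 of the HDACi group inside the vehicle range. Following context the gene had 103, 94.9, 109 and 103 CPM in HDACi striatum and 86.6, 81.2, 71.2 and 77 CPM in vehicle striatum, without overlap. The log2 fold changes were 0.23 (SE 0.08, edgeR adjusted p = 0.042) after CFC and 0.36 (SE 0.08, edgeR adjusted p = 0.00326) after context. The striatal call after CFC was lost in 12 of 16 fits that left out a library, where the log2 fold change was 0.17 to 0.24, and it was 0.28 without the 2 striatum libraries set apart (edgeR adjusted p = 0.0176). Of the other tandem-pore genes, Kcnk10 rose in hippocampus after context (0.24, edgeR adjusted p = 0.0406) and Kcnk2 in striatum after context (0.32, edgeR adjusted p = 0.0348). Both Kcnk10 and Kcnk2 lost the call in 10 and 7 of 16 such fits.

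The Kcna genes encode the pore subunits of axonal and A-type Kv currents. Of 6 genes, 4 rose in hippocampus after CFC, 3 in hippocampus after context, 5 in striatum after CFC and 3 in striatum after context, and 0 fell. The shares of all genes called higher were 7.42%, 6.55%, 9.57% and 10.3% in the same order. Summed per length, the subfamily held 71.7 ± 5.16 CPM per kb in HDACi CFC and 58.4 ± 4.71 in Veh CFC hippocampus, and 110 ± 9.63 CPM per kb in HDACi CFC and 81.6 ± 4.05 in Veh CFC striatum (SD, n = 4).

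Kcna4 (mm10 chr2:107290639-107298502), an A-type pore subunit, had 40.6, 37.9, 40.9 and 32.8 CPM in HDACi CFC hippocampus and 29.8, 22.9, 27.1 and 24.7 CPM in Veh CFC hippocampus. In context mice it had 42.0, 37.8, 47.6 and 43.2 CPM in HDACi hippocampus and 26.1, 26.3, 29.5 and 28.4 CPM in vehicle hippocampus. No libraries overlapped, with log2 fold changes of 0.53 (SE 0.10, edgeR adjusted p = 0.000832) after CFC and 0.63 (SE 0.10, edgeR adjusted p = 0.000187) after context. In striatum it had 131, 79.7, 140 and 106 CPM in HDACi CFC mice and 82.2, 75.6, 75.6 and 74.1 CPM in Veh CFC mice. With context alone it had 98.6, 128, 126 and 135 CPM in HDACi striatum and 80.5, 85.0, 91.2 and 88.4 CPM in vehicle striatum. Only HDACi CFC replicate 2, the library low in medium spiny neuron genes, lay within its vehicle range. The log2 fold changes were 0.55 (SE 0.13, edgeR adjusted p = 0.00628) after CFC, 0.66 without the libraries set apart, and 0.48 (SE 0.13, edgeR adjusted p = 0.0142) after context. The last call was lost without Veh Context replicate 1 (0.42, edgeR adjusted p = 0.0559).

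Kcna1 (mm10 chr6:126640397-126646384), a low-threshold axonal subunit, had 131, 109, 111 and 103 CPM in HDACi CFC hippocampus and 101, 75.4, 94.3 and 85.5 CPM in Veh CFC hippocampus. After context it had 117, 104, 134 and 116 CPM in HDACi hippocampus and 92.5, 93.6, 102 and 91.4 CPM in vehicle hippocampus. The groups were separate by a narrow margin, with log2 fold changes of 0.34 (SE 0.10, edgeR adjusted p = 0.0204) and 0.31 (SE 0.10, edgeR adjusted p = 0.0345). The first call was lost without Veh CFC replicate 4 (0.32, edgeR adjusted p = 0.0591) or HDACi CFC replicate 1 (0.26, edgeR adjusted p = 0.0787), and the second in 6 of 16 fits that left out a library (0.23 to 0.31). In striatum it had 123, 102, 123 and 119 CPM in HDACi CFC mice and 77.2, 99.3, 85.7 and 91.4 CPM in Veh CFC mice. Following context the gene had 110, 117, 113 and 127 CPM in HDACi striatum and 89.7, 92.1, 86.8 and 97.5 CPM in vehicle striatum. All HDACi libraries were higher, with log2 fold changes of 0.38 (SE 0.08, edgeR adjusted p = 0.00244) after CFC and 0.33 (SE 0.08, edgeR adjusted p = 0.0065) after context.

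Kcna6 (mm10 chr6:126708329-126740674), a delayed rectifier subunit, overlaps the antisense gene Gm26673. It had 90.8, 82, 88.5 and 83.0 CPM in HDACi CFC hippocampus and 67.6, 72.3, 68.6 and 71.3 CPM in Veh CFC hippocampus, without overlap. The log2 fold change was 0.28 (SE 0.08, edgeR adjusted p = 0.0158), and 0.26 without Veh CFC replicate 1 (edgeR adjusted p = 0.0506). After context it was 0.30 (SE 0.08, edgeR adjusted p = 0.011), where the lowest HDACi library, at 76.8 CPM, lay just under the highest vehicle library, at 77 CPM. In striatum it had 83.8, 117, 88.1 and 111 CPM in HDACi CFC mice and 50.3, 62.3, 79.6 and 56.0 CPM in Veh CFC mice. The groups did not overlap (log2 fold change 0.67, SE 0.13, edgeR adjusted p = 0.00142). After context the change of 0.34 did not pass the test (SE 0.13, edgeR adjusted p = 0.0695).

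Kcna5 was called in striatum only. It had 40.5, 28.1, 41.8 and 40.8 CPM in HDACi CFC striatum and 28.4, 27.5, 20.4 and 31.7 CPM in Veh CFC striatum, so replicate 2 of the HDACi group overlapped the vehicle group. In context mice it had 43.4, 47.4, 35.9 and 45.4 CPM in HDACi striatum and 25.4, 26.8, 20.8 and 24.7 CPM in vehicle striatum, far apart. The log2 fold changes were 0.47 (SE 0.14, edgeR adjusted p = 0.0248) and 0.80 (SE 0.14, edgeR adjusted p = 0.000568), and the first was lost in 5 of 16 fits that left out a library (0.35 to 0.45). In hippocampus, where it had 0.458 to 1.4 CPM, it had −0.82 after CFC (edgeR adjusted p = 0.0737). Kcna3, found in neurons and microglia, rose after CFC in hippocampus (0.44, edgeR adjusted p = 0.0453) and striatum (0.67, edgeR adjusted p = 0.0228). These calls were lost in 11 and 4 of 16 such fits.

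The delayed rectifier gene Kcnb2 rose in striatum, by 0.36 after CFC (edgeR adjusted p = 0.0136) and 0.29 after context (edgeR adjusted p = 0.042). Without the libraries set apart, Kcnb2 after context had an adjusted p of 0.0694, and its call there was lost in 11 of 16 fits that left out a library. The Kcnc genes gave 0 of 4 calls in every comparison, with a median log2 fold change of 0.145 in hippocampus after CFC and 0.291 in striatum after CFC.

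Among the A-type Kcnd genes, Kcnd3 rose in hippocampus, by 0.27 after CFC (edgeR adjusted p = 0.00892) and 0.21 after context (edgeR adjusted p = 0.0364). Kcnd1 was the only member that fell. It had 13.2, 11.6, 12.4 and 11.3 CPM in HDACi CFC striatum and 18.3, 15.6, 13.6 and 14.6 CPM in Veh CFC striatum. The HDACi libraries were all lower, with a log2 fold change of −0.37 (SE 0.10, edgeR adjusted p = 0.0139), which was −0.29 without Veh CFC replicate 1 (edgeR adjusted p = 0.0531). Kcnd1 values in the other comparisons were −0.25, −0.11 and −0.19 and did not pass the test. The Kcnd partner genes Kcnip3 and Kcnip2 rose in hippocampus: Kcnip3 by 0.31 after CFC and 0.38 after context, and Kcnip2 by 0.29 after context (edgeR adjusted p = 0.0339, 0.0107 and 0.0169). Leaving out each library in turn ended the call of Kcnd3 after context, and of Kcnip3 after CFC, in 6 of 16 fits each. The 3 Kcnab genes gave 0 calls.

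Among other Kv pore genes, the ether-a-go-go gene Kcnh1 rose by 0.25 in hippocampus after CFC (edgeR adjusted p = 0.0166) and 0.30 in striatum after context (edgeR adjusted p = 0.039), and the other 7 Kcnh genes gave 0 calls. Kcnh1 in striatum lost its call in 9 of 16 fits that left out a library.

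The Kcnj family, the largest, had the most calls in hippocampus, 6 of 13 after each behaviour, against 2 of 12 in striatum after each. By share, Kcna had more in hippocampus, with 4 of 6 after CFC and 3 of 6 after context. Of all genes tested, 7.42% and 6.55% were called higher in hippocampus after CFC and after context, and 9.57% and 10.3% in striatum. In the main test of the regional difference of the drug effect, 0 of 13 Kcnj genes passed after either behaviour. One of the Kcnj calls after CFC was Kcnj13, which was high only in the HDACi CFC libraries with choroid plexus RNA. Besides Kcnj2 and Kcnj10, 3 subunit genes of G-protein-gated inward rectifiers rose in hippocampus. Kcnj9 rose by 0.51 after CFC and 0.61 after context (edgeR adjusted p = 0.0124 and 0.00372). Kcnj5 rose by 0.89 after CFC and 0.73 after context (edgeR adjusted p = 0.0124 and 0.0338), and Kcnj3 by 0.22 and 0.35 (edgeR adjusted p = 0.0474 and 0.00257). Kcnj5 was scarce, at 0.62 ± 0.182 CPM in Veh Context hippocampus (SD, n = 4). Its call after context was lost in 6 of 16 fits that left out a library (0.58 to 0.76), with the DESeq2 Wald test, without a low-count filter and with library size scaling. Without HDACi CFC replicates 2 and 4, the libraries with choroid plexus RNA, Kcnj9 after CFC was not called (0.54, edgeR adjusted p = 0.0754), and Kcnj3 after CFC lost its call in 11 of 16 fits that left out a library. Kcnj8, the pore subunit of an ATP-sensitive channel of pericytes and smooth muscle, had 3.21, 3.24, 3.03 and 3.26 CPM in HDACi Context hippocampus and 2.61, 1.92, 2.12 and 1.8 CPM in Veh Context hippocampus. Its HDACi libraries were all higher (log2 fold change 0.58, edgeR adjusted p = 0.00811), beside 2 of 8 pericyte markers that rose, whose sum was 204 to 266 CPM in HDACi Context and 178 to 222 CPM in Veh Context hippocampus. The part of the pericyte markers was not tested. The strong inward rectifier gene Kcnj4 had 158, 107, 122 and 116 CPM in HDACi CFC striatum and 156, 114, 66.5 and 96.6 CPM in Veh CFC striatum, overlapped, and did not pass the test. In hippocampus after context it had 0.39 (edgeR adjusted p = 0.407), and passed only with the replicate number as a block (0.42, edgeR adjusted p = 0.0193).

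Among channels gated by calcium, the small-conductance genes Kcnn3 and Kcnn2 rose in different regions. Kcnn3 had 164, 122, 167 and 122 CPM in HDACi CFC striatum and 109, 92.8, 88.0 and 81.9 CPM in Veh CFC striatum. With context alone it had 146, 171, 159 and 176 CPM in HDACi striatum and 90.1, 104, 106 and 89.6 CPM in vehicle striatum. The striatal groups did not overlap, with log2 fold changes of 0.61 (SE 0.12, edgeR adjusted p = 0.000981) after CFC and 0.73 (SE 0.12, edgeR adjusted p = 0.000215) after context. In hippocampus it had 27.6, 32.4, 30.2 and 31.3 CPM in HDACi CFC mice and 23.6, 25.9, 31.2 and 31.1 CPM in Veh CFC mice, which overlapped (0.11, edgeR adjusted p = 0.518). Kcnn2 rose in hippocampus by 0.30 after CFC (edgeR adjusted p = 0.0137) and 0.37 after context (edgeR adjusted p = 0.00328). The large-conductance Kcnm genes, the sodium-activated Kcnt genes, Kcnrg and Kcnu1 gave 0 calls in every comparison.

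The largest drug effects belonged to 2 genes that mark the choroid plexus: Kcnj13, an apical inward rectifier of its epithelium, and Kcne2, an auxiliary subunit there. Kcnj13 had 0.236, 72.8, 0.193 and 66.4 CPM in HDACi CFC hippocampus and 0.294, 0.901, 2.78 and 0.183 CPM in Veh CFC hippocampus. Kcne2 had 0.177, 38.0, 0.0 and 36.4 CPM in HDACi CFC hippocampus and 0.0588, 0.0966, 0.316 and 0.0785 CPM in Veh CFC hippocampus. Both were high in HDACi CFC replicates 2 and 4 alone, and replicates 1 and 3 lay within or below the range of the vehicle mice. Ttr, the leading choroid plexus transcript, was high in the same libraries, with 11.1, 5470, 5.11 and 5220 CPM in HDACi CFC hippocampus and 6.97, 8.56, 36.3 and 14.8 CPM in Veh CFC hippocampus. All 10 of 10 choroid plexus markers rose in this comparison, and their sum was 225 to 9780 CPM in HDACi CFC and 167 to 305 CPM in Veh CFC hippocampus. With all libraries the log2 fold changes were 5.05 for Kcnj13 (edgeR adjusted p = 0.0159) and 7.02 for Kcne2 (edgeR adjusted p = 0.00508), and both are counted among the 19 risers. Without replicates 2 and 4 they were −2.25 for Kcnj13 (edgeR adjusted p = 0.375) and −0.57 for Kcne2 (edgeR adjusted p = 0.906). Kcnj9, Kcna3, Kcnh1 and Kcnip3 were also not called in hippocampus after CFC without these 2 libraries, and 15 genes then rose.

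**Figure D5:**
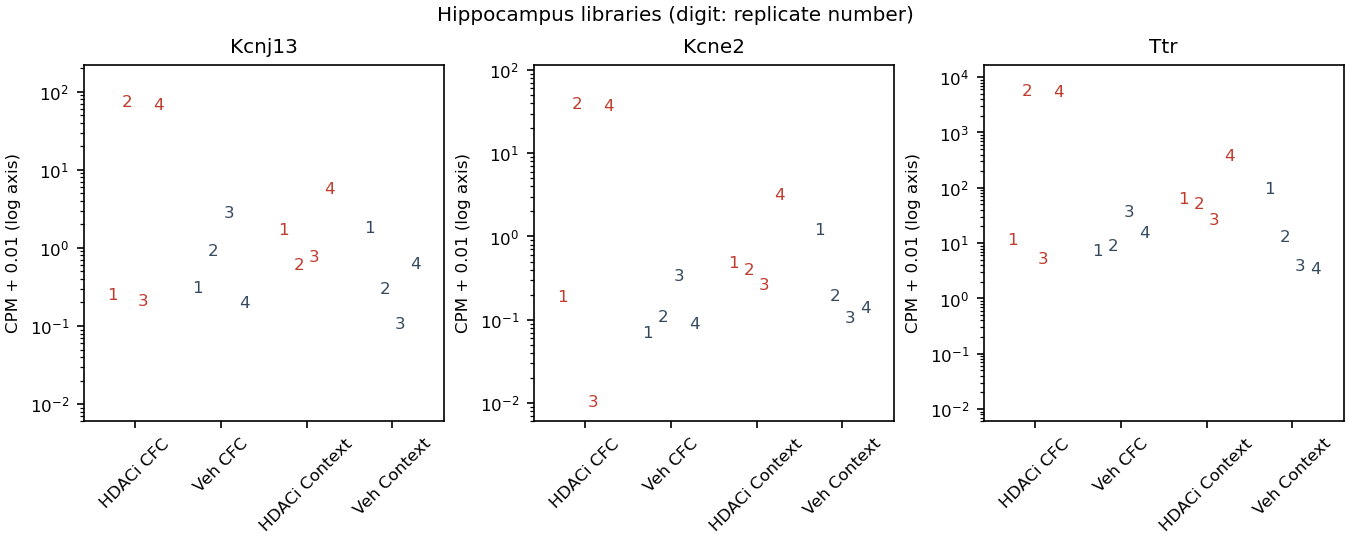
CPM + 0.01 (log axis) of Kcnj13, Kcne2 and Ttr in each hippocampus library by group, each library drawn as its replicate number. HDACi CFC replicates 2 and 4 stand at the top in all 3 panels, with 72.8 and 66.4 CPM of Kcnj13 and 5470 and 5220 CPM of Ttr.

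No potassium channel gene passed the test for behaviour. CFC against context gave 0 calls among the 82 genes in hippocampus and 0 of 78 in striatum, under HDACi or vehicle, and the interaction of drug and behaviour gave 0 in either region (edgeR, 0% of all genes called in each of the 6 comparisons). The DESeq2 Wald test also called 0 members in all 6. At an unadjusted p under 0.05, edgeR gave 2 members under HDACi and 2 under vehicle in hippocampus, 9 under HDACi and 0 under vehicle in striatum, and 1 and 2 for the interaction in hippocampus and striatum. Over all genes that threshold took 4.24% under HDACi and 1.03% under vehicle in hippocampus, 5.41% under HDACi and 1.18% under vehicle in striatum, and 2.14% and 2.08% for the interaction. Nominal changes with CFC under HDACi in striatum were −0.33 for Kcnk2, −0.33 for Kcnip2, −0.21 for Kcng1 and 0.61 for the Kcnm auxiliary gene Kcnmb4. In the same comparison the 10 medium spiny neuron markers had a median of −0.26 and the 6 neocortical markers a median of 0.94, with 0 called in either list. Without the libraries set apart the values were −0.27 for Kcnk2, −0.24 for Kcnip2, −0.23 for Kcng1 and 0.49 for Kcnmb4. Those under HDACi in hippocampus were 4.13 for Kcne2 and 4.00 for Kcnj13, whose high libraries are given above.

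Whether the drug effect differed between the regions was tested in a fit of all 32 libraries, as the log2 fold change in hippocampus minus that in striatum. After CFC 0 of 82 genes passed, against 0.266% of 19198 genes (edgeR). At an unadjusted p under 0.05 there were 8 of 82, against 7.84% of all genes. The DESeq2 Wald test called 3 members, and 149 of all 18132 genes it tested. Kcnk1 had the smallest adjusted p after CFC, with a difference of 0.52 (edgeR adjusted p = 0.0667). After context 1 of 82 genes passed, against 0.62% of all genes. This was Kcnn3, with a difference of −0.69 (SE 0.15, edgeR adjusted p = 0.0291), beside the values by library given above. In Context hippocampus it had 27.5, 33.5, 30.0 and 30.8 CPM in HDACi mice and 28.6, 30.4, 26.4 and 31.6 CPM in vehicle mice, which overlapped. The Kcnn3 call was lost in 20 of 32 fits that left out a library, with differences of −0.73 to −0.54 over all settings tried, and without the 4 libraries set apart it was −0.59 (edgeR adjusted p = 0.0726). DESeq2 size factors, no low-count filter and either replicate set also ended the call. Kcnn2 had 0.43 (edgeR adjusted p = 0.0777) and Kcnk1 0.46 (edgeR adjusted p = 0.087), and neither passed. With the replicate number as a block, 4 genes passed after context: Kcnn3 (−0.69, edgeR adjusted p = 0.0209), Kcnn2 (0.43, edgeR adjusted p = 0.00633), Kcnk1 (0.46, edgeR adjusted p = 0.0205) and Kcnj2 (0.69, edgeR adjusted p = 0.0382). After CFC the block let pass Kcna5 (−1.31, edgeR adjusted p = 0.0451), the Kv gene Kcnh2 (0.72, edgeR adjusted p = 0.0427) and Kcnk1 (0.53, edgeR adjusted p = 0.012). Over all 19198 genes the block raised the calls too, from 119 to 238 after context and from 51 to 139 after CFC.

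Genes that work with these channels were counted against the same shares of all genes called higher, 7.42% in hippocampus after CFC, 6.55% in hippocampus after context, 9.57% in striatum after CFC and 10.3% in striatum after context. Of 26 channel partners tested, 2 (7.69%), 4 (15.4%), 4 (15.4%) and 5 (19.2%) rose in these 4 comparisons. They included Amigo1, a Kcnb partner, with log2 fold changes of 0.30 after CFC and 0.38 after context in hippocampus, and Akap5, a scaffold that binds Kcnq channels, with 0.77 after CFC and 0.91 after context in striatum. Of 11 potassium pump and transporter genes 2 (18.2%), 2 (18.2%), 1 (9.09%) and 3 (27.3%) rose. Atp1b1, a sodium pump subunit, rose in all 4, by 0.30, 0.32, 0.36 and 0.33. The 4 hyperpolarisation-activated Hcn genes gave 0 calls, the 9 sodium channel genes 0, 1 (11.1%), 3 (33.3%) and 4 (44.4%), and the 18 calcium channel genes 0, 0, 1 (5.56%) and 4 (22.2%). Of 14 activity-regulated genes 3 (21.4%) rose in hippocampus after each behaviour and 0 in striatum. No gene of these 6 lists fell.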

How the data were processed

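The authors deposited a matrix of raw counts per gene. Libraries were stranded and made from polyadenylated RNA, per the labels. The submitters' processing notes list STAR 2.6, bcl2fastq 2.20.0, DESeq2 and mm10 without saying what each was used for. Neither the counting tool nor the strand setting is given in the sources used here. Symbols were matched through GENCODE mouse release M21 for 54079 of 54146 identifiers, and at most 0.0264% of the counts of any library lay in the 67 that did not match. Replicates differed beyond sampling noise in every pair (chi-square over degrees of freedom from 5.77 to 67.7).

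edgeR 4.0.16 in R 4.3.3 was run on the 16 libraries of each region (4 group means, TMM scaling, filterByExpr, two-sided quasi-likelihood F test). Region contrasts used all 32 libraries. P-values were adjusted with the Benjamini-Hochberg method across every gene tested, and a gene was called at an adjusted p under 0.05. Levels are TMM-scaled CPM computed from the counts. All 82 members were tested in hippocampus and 78 in striatum, where Kcne2, Kcne3, Kcnj13 and Kcnk12 were too low. The fits were run on simulated counts, drawn for independent libraries from the same negative binomial model that edgeR fits. That simulation cannot show how the test behaves with replicates that deviate together or with the libraries set apart. Alternatives were DESeq2 1.42.0 size factors and its Wald test, library size scaling, no low-count filter, a replicate block, offsets for GC content and exon length, each set of 2 replicates or a term for the sets, and leaving out each library. Another alternative left out 4 libraries with a mean log2 CPM of choroid plexus markers over 5 in hippocampus or of medium spiny neuron markers under 8.6 in striatum.

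Values by library are given for members called in at least 3 of the 4 drug comparisons and for members linked to a cell type, and others by subfamily with examples of smallest adjusted p. Kcna5, Kcnd1, Kcng2, Kcnj6, Kcnh4 and Kcnn3 were added after their values were seen. The members and gene lists were chosen with earlier results of these data known. Same-numbered libraries deviated together (correlation over 0.1 in every pair) between HDACi Context and Veh Context, at 0.615 to 0.772 in hippocampus and 0.235 to 0.626 in striatum. In the CFC comparisons not every pair was over 0.1. Replicates 1 to 4 had 0.354, 0.296, 0.654 and 0.0598 in hippocampus, and 0.631, −0.0296, −0.278 and 0.116 in striatum. Within a region, the numbers did not single out pairs in the context comparisons. The best match had the same number for 2 of 4 Veh Context libraries in hippocampus and 3 of 4 in striatum. In both regions, replicates 1 and 2 of these groups correlated positively with each other and negatively with replicates 3 and 4. In hippocampus, Veh Context replicate 1 and HDACi Context replicate 3 had −0.842. Across regions, a hippocampus library matched best with its own number for 4 of 4 in Veh CFC and in HDACi CFC. The count was 3 of 4 in HDACi Context and 1 of 4 in Veh Context. Same-number correlations across regions were 0.354 to 0.457, 0.089 to 0.417, 0.432 to 0.686 and 0.519 to 0.811 in that order. Whether such libraries share a mouse is not known. No main test was paired, and the replicate block was an alternative only. Single values of 3 members are not reported here, though these genes stay in every count.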

Additional observations from a re-analysis of the deposited data

Results flagged for a closer look

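Of 136 sets of 4 libraries, from 17 genes in 8 groups, 11 held a library far from the other 3, and chance alone gives about 1 in 20 such sets. In striatum, HDACi CFC replicate 2 had 28.1 CPM of Kcna5 (others 40.5 to 41.8) and 17.5 CPM of Kcnj16 (others 9.2 to 9.54), and it is also low in medium spiny neuron genes. Veh CFC replicate 2 in striatum had 208 CPM of Kcnj10 (others 178 to 182). In hippocampus, HDACi CFC replicate 1 had 185 CPM of Kcnc1 (others 165 to 167) and HDACi CFC replicate 3 had 95.7 CPM of Kcnk1 (others 114 to 118). HDACi Context replicate 1 had 122 CPM of Kcnk1 (others 99.3 to 102). Veh Context replicate 4 had 152 CPM of Kcnc1 (others 168 to 170), and Veh Context replicate 3 had 45 CPM of Kcnf1 (others 57.4 to 58.2). Kcne2 stood out in HDACi Context replicate 4 at 3.08 CPM (others 0.246 to 0.469), in Veh CFC replicate 3 at 0.316 CPM (others 0.0588 to 0.0966) and in Veh Context replicate 1 at 1.18 CPM (others 0.0934 to 0.178). The libraries that were high in Kcne2 were also the highest of their groups in Ttr, with 361, 36.3 and 93.1 CPM.

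The drug effect on Kcnn3 after context differed between hippocampus and striatum, by −0.687 on the log2 scale, in the test of that difference. The call was kept in 6 of 11 other settings and in 12 of 32 fits that left out a library.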

How the results depend on the processing

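The counts of called members after HDACi kept their direction under every alternative, but not their size. In hippocampus after CFC (19 calls) the replicate block with the GC content and length offsets gave 32, of which 30 were higher and 2 lower, replicates 1 and 2 only gave 9, replicates 3 and 4 only 6, and leaving out each library gave 14 to 21. In hippocampus after context (19) library size scaling gave 11, the replicate sets 8 and 12, and leaving out each library 14 to 19. In striatum after CFC (13) the replicate sets gave 8 and 6, and leaving out each library gave 10 to 21, with 21 (18 higher, 3 lower) without Veh CFC replicate 3. In striatum after context (14) the replicate sets gave 6 and 8, and leaving out each library gave 8 to 17, with 8 without Veh Context replicate 1 and 9 without Veh Context replicate 3 or HDACi Context replicate 2. The other alternatives stayed within 1.5 times the count.

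For the regional difference of the drug effect after CFC (0), DESeq2 size factors, library size scaling and the term for replicate sets gave 1 each, the GC content and length offsets 2, and the DESeq2 Wald test, the replicate block and the block with offsets 3 each, and leaving out each library 0 to 1. After context (1), no low-count filter and each replicate set gave 0, the offsets and leaving out the libraries set apart 2, library size scaling, the Wald test and the term for replicate sets 3, the replicate block and the block with offsets 4, and leaving out each library 0 to 3. Each alternative that added members in these 2 comparisons also called more of all genes than the main fit. The replicate block alone gave 26, 21, 14 and 15 calls in the 4 drug comparisons. Over all genes it gave 5419, 5304, 5367 and 5530 calls, against 3797, 3612, 4416 and 4524 in the main fits. In the context comparisons it ended no call, and among the members it added was Kcne1l in striatum (0.32, adjusted p = 0.0348). In hippocampus after CFC it ended the call of Kcnj13 (4.04, adjusted p = 0.0598). Of 66 named calls, 65 were kept under the Wald test, 59 with the offsets, 46 with library size scaling, and 26 and 30 in the replicate sets, and of the repeats that left out 1 library 912 kept the call and 160 did not. Without the libraries set apart, Kcne2 (−0.569) and Kcnj13 (−2.25) turned in direction and 6 other named calls were lost. The cause of these shifts was not tested.

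With 4 mice a group, standard errors were near 0.1 log2 for abundant members. The median over members was 0.13 in hippocampus and 0.148 in striatum for the drug comparisons. It was 0.232 and 0.233 for the regional differences of the drug effect. Changes of these sizes, and somewhat larger ones, can go undetected, and the rarest members have only a few counts.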
